A study of Arabidopsis thaliana with 21 samples.

Results

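Rosettes of Arabidopsis Col-0 that had been deacclimated for 12 h after cold acclimation (DEA 12 h, 3 arrays) were compared with cold acclimated rosettes (CA, 3 arrays), 6 of the 21 arrays of a time course with 7 groups. The comparison used every probe set that could be tied to 1 gene, 17404 of 38408 probe sets in all. Of these, 16722 were named by the platform's gene table, and their counts are given as the background below. The remaining 682 were named only by a list of transcripts that the authors had called as changed, so they are a selected set. They are marked as "from the authors' list" and enter no list count or percentage unless stated.

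All plants were wild type. They spent 3 weeks under 8 h days followed by 1 week under 16 h days, in a greenhouse at 20 °C (18 °C at night) with no less than 200 µmol of light per square metre and second. CA plants were then held for 3 d at 4 °C in days of 16 h and light of 90 µmol per square metre and second, whereas non-acclimated (NA) plants had no cold treatment. DEA plants spent the same 3 d in the cold and were then returned to the warm greenhouse and its brighter light for 2, 4, 6, 12 or 24 h, so the effects of warmth and of light cannot be told apart. Each array held RNA of 10 pooled rosettes, the 3 replicates of a group were independent, while none of the sources used here gave the clock hour of each harvest. The study's text places the transfer to warmth in the morning and all sampling within the day. Plants of 12 h and 24 h were therefore taken at different times of day, and hours of warming and time of day cannot be told apart.

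In the cold, Arabidopsis leaves raise transcripts of protective proteins under the control of the CBF transcription factors, accumulate sugars, raffinose and anthocyanins, and slow their growth. Return to warmth reverses much of this, while leaf expansion and primary metabolism resume. Many of the genes involved are also under the control of the circadian clock, in which morning-expressed repressors and evening-expressed genes alternate over the day. In pooled rosettes, fewer cells of one type and less RNA per cell cannot be told apart.

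At 12 h of deacclimation, 758 probe sets of the platform table (4.53%) were higher than in CA plants and 680 (4.07%) were lower, at an adjusted p under 0.05 in limma and a log2 change beyond 1, which is a 2-fold change. Over all 31329 analysed probe sets, named or not, 1382 were higher and 1490 lower, so that the more frequent direction was the other one. It also turned in the platform table with arrays centred on their medians (693 higher and 751 lower). The median size of the change among the called probe sets was 1.35 on the log2 scale in each direction. Changes over 2 were found for 108 raised and 107 lowered probe sets, and changes over 4 for 8 raised and 5 lowered ones. Without the fold threshold, 2542 (15.2%) were higher and 2253 (13.5%) lower. The median log2 change over all 16722 was 0.03. The shares of 4.53% and 4.07% are the background of the list counts below. A list of few genes without a call is near them.

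**Figure D1:**
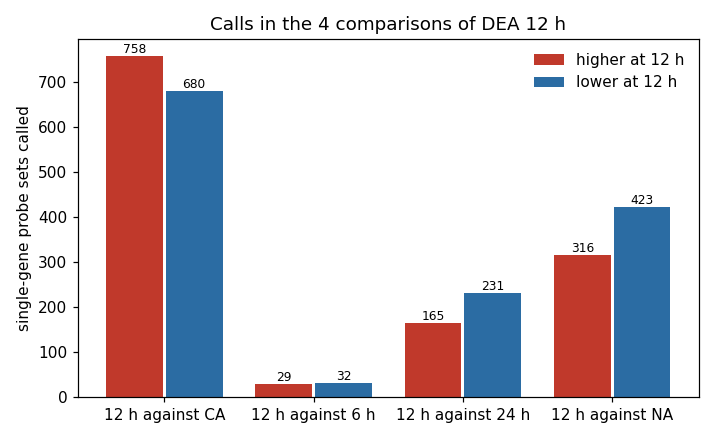
Number of single-gene probe sets of the platform table (vertical axis) that were higher (red) or lower (blue) at 12 h of deacclimation than in each of the 4 groups on the horizontal axis. The 758 and 680 calls against CA plants exceed the 29 and 32 against 6 h, the 165 and 231 against 24 h and the 316 and 423 against NA plants.

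The lowest correlation between arrays of either group was 0.992. Array medians lay between 8.11 and 8.18, but the authors' normalization (RMA) brings them close, so they are no measure of quality. The median SD between replicates was 0.132 in CA and 0.143 at 12 h. Leaf mesophyll markers were in the upper part of the log2 scale, with a mean over the 3 of 12 markers measured of 11.86 to 11.98 on the CA arrays and 12.20 to 12.31 at 12 h. The 2 root markers measured, EXPA7 and EXPA18, averaged 4.33 to 4.60 in CA and 4.09 to 4.42 at 12 h, beside a lower quartile of all values of 4.93. Of 8 genes listed as guard cell markers, the 3 measured were FMA, SPCH and MUTE. They averaged 9.07 to 9.27 in CA and 8.97 to 9.24 at 12 h. No marker of flowers, vascular tissue or senescence was measured in the platform table.

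**Figure D2:**
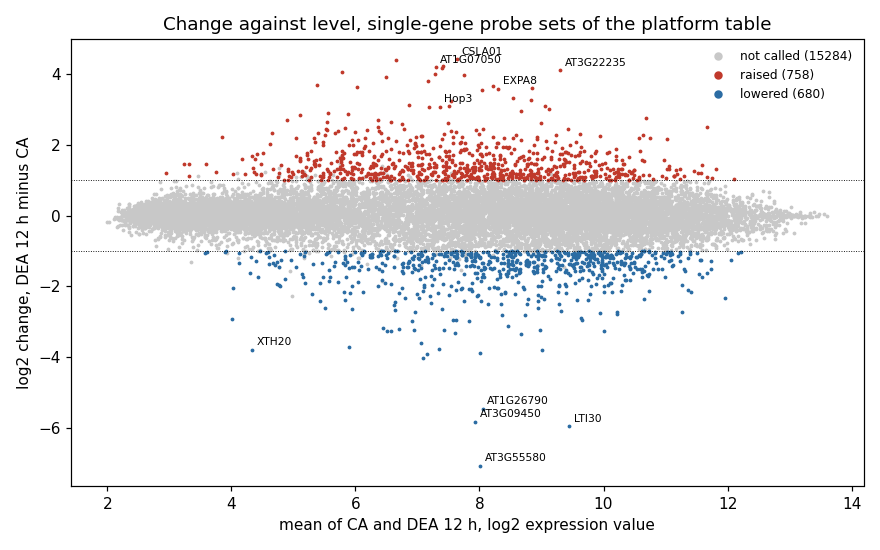
Log2 change between 12 h of deacclimation and CA (vertical axis) against the mean log2 expression value of both groups (horizontal axis) for the 16722 single-gene probe sets, with 758 raised in red and 680 lowered in blue. Dotted lines mark the 2-fold threshold, and AT3G55580 lies lowest at -7.06 while CSLA01 lies highest at 4.42.

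Transcripts of the cold-protective CBF and COR group had largely fallen at 12 h. Of 30 genes listed, 9 were measured, of which 6 fell, 1 rose and 2 did not pass the test, with a median log2 change of -1.95. The background shares were 4.07% lowered and 4.53% raised. Relative to CA, the list had medians of -1.12, -1.63 and -1.50 after 2, 4 and 6 h, of -2.29 after 24 h and of -3.64 in NA plants. The list median at 12 h was thus above that of NA plants. LTI30, a dehydrin, was at 12.54, 12.27 and 12.45 (log2 expression values) on the CA arrays and at 7.43, 5.91 and 6.07 at 12 h. All 3 arrays at 12 h were thus far below the CA arrays, and replicate 1 was the highest of them. LTI30 fell by 5.95 (SE 0.47, adjusted p = 1.29e-07), a 61.7-fold decrease.

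The chloroplast-targeted proteins COR15A and COR15B, which protect membranes during freezing, fell by 2.33 and 2.71 on the log2 scale. COR15A was at 13.05, 12.99 and 13.35 in CA and at 11.20, 10.59 and 10.62 at 12 h. COR15B was at 12.56, 12.57 and 12.74 in CA and at 10.28, 9.92 and 9.53 at 12 h. For both genes the groups were far apart, and the 12 h mean of COR15A was the lowest of all 7 groups, at 10.80 against 11.50 in NA plants. That difference from NA plants, -0.70 (adjusted p = 0.0149), passed the p threshold but not the fold threshold. KIN1, KIN2 and the dehydrin COR47 also fell, with log2 changes of -3.18, -1.95 and -1.56. COR15A and COR15B, and KIN1 and KIN2, are pairs of similar sequence, and a part of their signal may be shared. From the authors' list, GolS3, a galactinol synthase of raffinose synthesis, fell by 5.90, the repressor RAP2.1 by 3.57 and the chloroplast membrane protein COR413IM1 by 1.05. The call of COR413IM1 was lost with cyclic loess (-0.99) and without replicate 1 of 12 h (-0.98) or of CA (-0.97).

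COR27 and AT4G33980 took another course from the rest of the CBF and COR group. COR27, a regulator with links to the clock, was at 9.81, 9.46 and 9.91 in CA and at 10.43, 9.97 and 10.25 at 12 h, a log2 change of 0.49 that did not pass the test (adjusted p = 0.266). AT4G33980 was at 9.45, 9.21 and 9.73 in CA and at 10.74, 10.75 and 10.77 at 12 h, and it rose by 1.29 (SE 0.36, adjusted p = 0.00971). Relative to CA, COR27 differed by -4.67 at 2 h and by -4.07 at 24 h, and AT4G33980 by -3.50 and -3.57. In NA plants COR27 stood at 5.24, 4.64 and 5.46 and AT4G33980 at 5.54, 5.01 and 5.84, so that the 12 h arrays were far above those of plants that had not seen the cold. STZ, a zinc finger repressor of the same list, changed by -0.66 (adjusted p = 0.47).

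**Figure D3:**
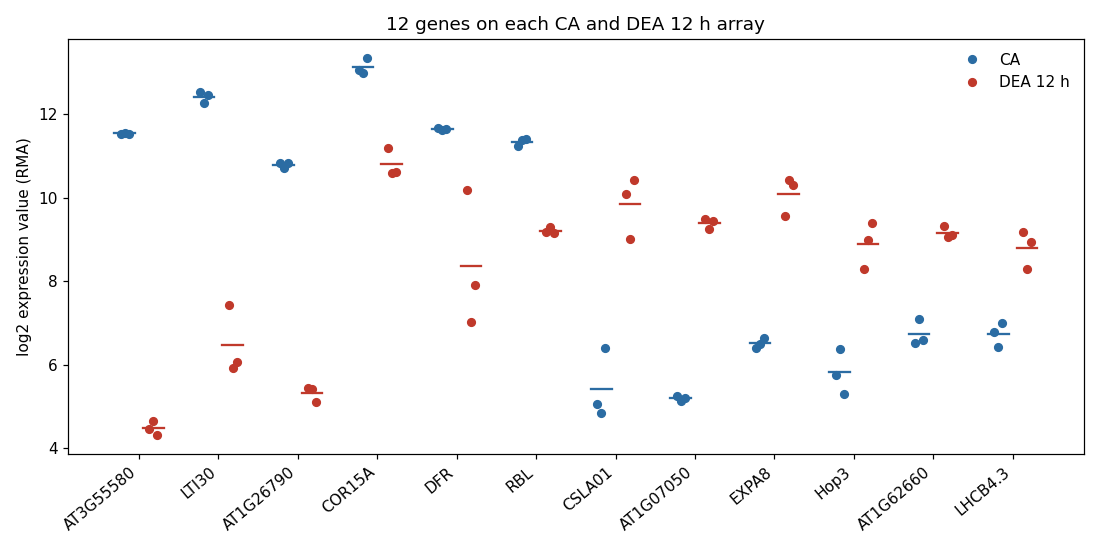
Log2 expression values (vertical axis) of 12 genes (horizontal axis) on each of the 3 CA arrays (blue) and the 3 arrays of 12 h of deacclimation (red), with horizontal bars at the means. The genes shown were picked from those called with no overlap between the groups, and the largest spread at 12 h is that of DFR, from 7.03 to 10.18.

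Large falls were found among clock genes, which were named mainly from the authors' list. Of 8 clock genes named from it, 4 fell and 1 rose, while ELF3, EPR1 (-0.68) and GRP7 (-0.05) were not called. CCA1 and LHY, the morning-expressed MYB repressors of the clock, fell by 5.20 and 5.21 on the log2 scale. CCA1 was at 12.12, 12.10 and 12.17 in CA, at 6.26, 6.98 and 7.55 at 12 h and at 12.20, 12.10 and 12.17 at 24 h. The 24 h and NA arrays of CCA1 were close to those of CA plants, while the 12 h arrays were far below. PRR9, a repressor expressed after CCA1 in the morning, was at 11.87, 11.98 and 11.98 in CA and at 4.71, 5.56 and 4.43 at 12 h, a fall of 7.05 (SE 0.34, adjusted p = 1.01e-09). ASG4, a MYB protein, fell by 4.68, and FKF1, an evening-expressed blue light receptor of the photoperiod pathway, rose by 2.08.

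FKF1 was at 6.45, 6.70 and 6.85 at 12 h, against 4.82, 4.60 and 4.33 in CA and 3.81, 3.47 and 3.89 at 24 h. These 5 genes from the authors' list had been called in some comparison of these arrays by the authors, so their changes are no independent sample of clock genes. Of the 30 clock genes listed, 3 were in the platform table, and 0 of these passed both thresholds at 12 h (median log2 change -0.27). Among them GI, an evening-expressed protein, changed by 0.22, AT4G01280 by -0.27 and AT5G52660, a MYB family gene, by -0.32. The evening gene ELF3, from the authors' list, changed by 0.69 against CA, short of the fold threshold, and was at 10.12, 10.25 and 10.15 at 12 h and at 7.53, 7.29 and 6.98 in NA plants.

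Genes of photoperiod and light signalling changed in both directions. AT1G69570, a Dof-type zinc finger gene and the only 1 of 12 photoperiod genes measured, fell by 1.18, from 10.66, 10.13 and 10.40 to 9.37, 9.11 and 9.17. The arrays of the 2 groups did not overlap. FT, the mobile flowering signal (from the authors' list), was at 8.71, 8.41 and 9.05 in CA and at 8.35, 8.56 and 9.00 at 12 h, where the groups overlapped, and at 6.55, 6.62 and 7.39 at 6 h. FBH3, a bHLH protein also from that list, rose by 2.43, from between 7.77 and 8.23 in CA to between 10.43 and 10.53.

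The 2 genes of light signalling in the platform table both fell, of 20 listed. HYH, a bZIP activator of light responses, was at 11.09, 10.93 and 11.11 in CA and at 9.22, 8.93 and 9.14 at 12 h, and fell by 1.95 (SE 0.34, adjusted p = 0.000318). PIF7, a phytochrome-interacting factor that promotes elongation, fell by 1.16, from 10.23, 10.44 and 10.35 to 9.02, 9.27 and 9.25. Both were lower at 12 h than at 24 h (log2 differences -2.11 and -1.16, adjusted p = 0.000758 and 0.00429) and than in NA plants (-2.09 and -1.35). PIF4, the related factor that acts in growth at warm temperature and that came from the authors' list, went the other way, from 8.79, 8.82 and 9.03 to 10.71, 11.19 and 11.05, a rise of 2.10. Among B-box zinc finger genes, AT2G47890 was the only 1 of 19 listed that the platform table named, and its fall of 1.0 lay at the fold threshold. Without replicate 2 of 12 h it changed by -0.86 and without CA replicate 3 by -0.96, both short of the threshold. Among genes of the authors' list, STH, BBX16 and BBX18 fell by 2.63, 1.89 and 1.65, and BBX17, BBX27 and BBX15 rose by 2.48, 1.92 and 1.05. BBX15 stood at 0.95 without CA replicate 1.

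Transcripts of flavonoid and anthocyanin synthesis were lower at 12 h. Of 33 genes listed, 9 were measured, and 7 of them fell while 0 rose, beside background shares of 4.07% and 4.53%. The median log2 change was -1.50. DFR, which reduces dihydroflavonols on the way to anthocyanins, was at 11.67, 11.62 and 11.65 in CA and at 10.18, 7.03 and 7.91 at 12 h. All 12 h arrays of DFR were below the CA arrays, but replicate 1 was much less lowered than the other two, and the fall of 3.27 had a standard error of 0.55 (adjusted p = 0.000219). The same replicate was the least lowered for UF3GT, at 5.66 beside 4.01 and 4.24, and for AT5MAT, at 6.63 beside 5.66 and 5.79.

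The glycosyltransferases UGT78D3, UF3GT and UGT78D2, which decorate flavonols and anthocyanins, fell by 2.94, 2.39 and 1.50 on the log2 scale, and AT5MAT, an anthocyanin malonyltransferase, by 2.13. AT4G14090 fell by 1.35 and CHIL, a chalcone isomerase-like protein, by 1.15. The members that did not pass were UGT78D1 (-0.31) and BAN (0.01), the latter an enzyme of seed coat tannin synthesis at log2 values of 3.54 to 3.66 on all 6 arrays. Relative to CA, the 9 genes had medians of -1.68, -1.56 and -2.53 after 2, 4 and 6 h, of -0.81 after 24 h and of -1.05 in NA plants. CHIL was the only 1 of the 9 called between 12 h and 6 h, 1.38 higher at 12 h (adjusted p = 0.00212), with 10.77, 10.44 and 10.65 at 12 h and 9.68, 8.86 and 9.19 at 6 h, a call that was lost, as all calls between these times were, when only the 6 arrays compared were fitted. From the authors' list, MYBL2, a repressor of anthocyanin genes, fell by 1.92 and MYB12, an activator of flavonol genes, by 1.64, while 4CL1, of general phenylpropanoid metabolism, rose by 1.29.

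Genes for ribosome biogenesis, the making of ribosomal subunits in the nucleolus, were lower at 12 h. Of 37 genes listed, 11 were measured, 8 fell past both thresholds and 0 rose, with a median log2 change of -1.34. All 11 were lower at an adjusted p under 0.05 alone, beside 13.5% of the background. AT1G52930, a gene for a brix domain protein, was at 11.28, 11.16 and 11.18 in CA and at 9.14, 9.08 and 8.96 at 12 h, and fell by 2.15 (SE 0.10, adjusted p = 1.01e-09). RBL, a WD-repeat protein, was at 11.24, 11.37 and 11.40 in CA and at 9.17, 9.29 and 9.15 at 12 h, and fell by 2.13 (SE 0.12, adjusted p = 5.03e-09). The groups of both genes were about 2 log2 units apart, with little spread in either.

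AT3G15460 fell by 1.64, AT1G77030 by 1.48, AT4G26600 by 1.46 and PESCADILLO (AT5G14520), a nucleolar protein of the large subunit's assembly, by 1.34. AT5G15550 fell by 1.32 and AT2G40360 by 1.02, the latter with -0.97 without replicate 1 of 12 h and -0.96 with cyclic loess, where it was not called. The 3 genes short of the fold threshold were AT3G03920 (-0.88), AT5G60990 (-0.87) and the RNA helicase PRH75 (-0.78). Relative to CA, the list had medians of -0.51, -0.75 and -1.0 after 2, 4 and 6 h, of -1.10 after 24 h and of -0.74 in NA plants, so that 12 h had the lowest of these medians. RBL was lower at 12 h than in NA plants by a log2 difference of -0.90 (adjusted p = 0.000104) and AT1G52930 by -0.87 (adjusted p = 2.37e-05), differences short of the fold threshold. The authors' list was selected for change, with 180 of its 682 probe sets lower and 159 higher, and 9 of 9 further genes of ribosome biogenesis in it fell, among them PWP2 by 1.97, NAF1 by 1.73, NOP56 by 1.44 and nucleolin NUC-L1 by 1.19.

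**Figure D4:**
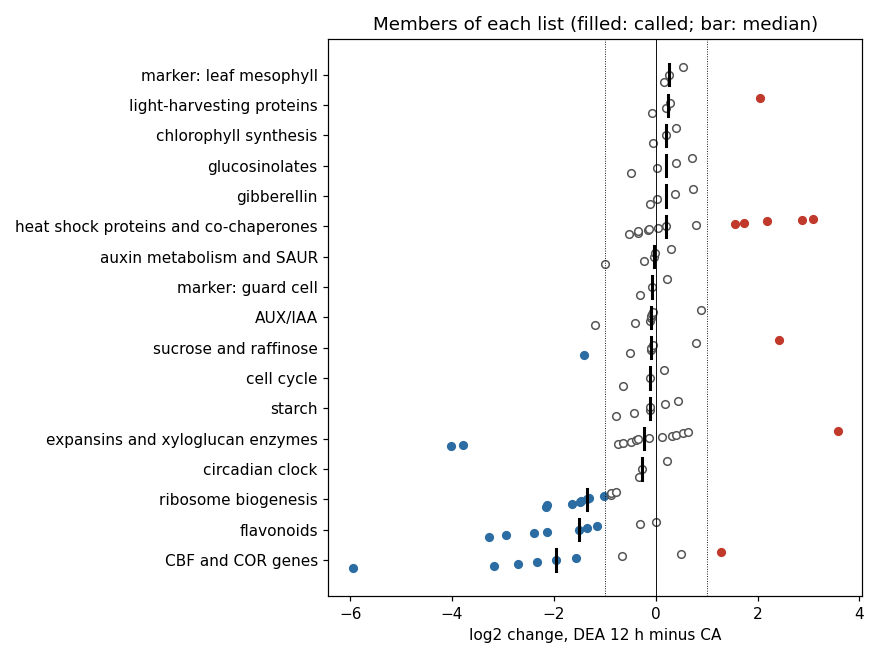
Log2 change between 12 h of deacclimation and CA (horizontal axis) for each member in the platform table of the lists with at least 3 such members (vertical axis), with filled points for called members and a black bar at each list's median. The CBF and COR, flavonoid and ribosome biogenesis lists have medians of -1.95, -1.50 and -1.34, while the medians of the other lists lie between -0.27 and 0.27.

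Part of the heat shock list was raised after 12 h in the warm. Of 33 heat shock proteins and co-chaperones listed, 13 were measured, 5 rose and 0 fell, beside background shares of 4.53% and 4.07%. The median log2 change was 0.20. At an adjusted p under 0.05 alone, 2 were lower, Hop2 (-0.34) and HSA32 (-0.53). Relative to CA, the list had medians of 0.64, 0.38 and 0.28 after 2, 4 and 6 h, of 0.06 after 24 h and of 0.47 in NA plants. Hop3, a co-chaperone that links HSP70 and HSP90, was at 5.76, 6.38 and 5.31 in CA and at 8.30, 8.99 and 9.40 at 12 h, a rise of 3.08 (SE 0.45, adjusted p = 5.31e-05). AT5G51440 was at 5.18, 3.77 and 4.35 in CA and at 5.80, 8.03 and 8.11 at 12 h, a rise of 2.88 in which replicate 1 was well below the other two. Neither gene overlapped between the groups. ROF2 (AT5G48570), a peptidyl-prolyl isomerase, rose by 2.19, AT5G37670 by 1.73 and AT2G29500, a small heat shock protein, by 1.56.

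Hop1 and Hop2, relatives of Hop3, changed by -0.14 and -0.34, and ATHSP22.0 lay between 2.75 and 3.13 on all 6 arrays, near the 5% point of all values at 2.99. Hop3 stood at 8.66, 9.36 and 8.92 in NA plants, and the difference of 12 h from NA plants was -0.08 (adjusted p = 0.938). The heat shock factor HSFA2, from the authors' list, was at 3.58, 3.61 and 4.23 in CA and at 5.03, 7.32 and 5.90 at 12 h, a rise of 2.28 (SE 0.62, adjusted p = 0.00951) that became 1.66 and lost its call without replicate 2 of 12 h. HSFA2 had been 6.31 above CA at 2 h and was 4.31 above it in NA plants, and its 12 h level was below NA plants by a log2 difference of -2.03 (adjusted p = 0.0352). Also from the authors' list, HSP101, the disaggregase of heat tolerance, rose by 1.46, HSFA8 by 1.30 and BIP3, a chaperone of the endoplasmic reticulum, by 1.81.

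Among growth genes, single members moved by large amounts and the lists as a whole did not. Of 36 expansins and xyloglucan enzymes listed, 14 were measured, of which 1 rose and 2 fell, with a median of -0.23. The background shares were 4.53% raised and 4.07% lowered. EXPA8, an expansin that loosens cell walls, was at 6.41, 6.49 and 6.64 in CA and at 9.55, 10.43 and 10.30 at 12 h, and rose by 3.58 (SE 0.43, adjusted p = 8.78e-06). The lowest 12 h array of EXPA8 was nearly 3 log2 units above the highest CA array. It was also 2.17 above 24 h (adjusted p = 0.00395) and 2.92 above NA plants (adjusted p = 0.000199).

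XTH20 was at 7.05, 6.25 and 5.40 in CA and at 2.41, 1.92 and 3.00 at 12 h, and fell by 3.79, to values near the lowest on the arrays. XTH33 fell by 4.02, from 8.46, 9.46 and 9.40 to 4.75, 5.21 and 5.30, but with a standard error of 1.12, and its values were 5.40, 10.43 and 9.97 in NA plants and 4.65, 8.03 and 4.53 at 24 h. Both are xyloglucan endotransglucosylases, which cut and rejoin a wall polymer. The other expansins measured, such as EXPA15 (-0.39), EXPA4 (0.32) and EXPB1 (0.53), did not pass.

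In the hormone lists few genes of the platform table passed. None of 8 AUX/IAA genes, 5 genes of auxin metabolism, 4 of gibberellin, 2 of ethylene and 3 of the cell cycle was called in either direction at 12 h, with list medians of -0.10, -0.03, 0.21, 0.47 and -0.11. At the background shares of 4.53% raised and 4.07% lowered, lists this small would hold few or no calls. IAA29, an auxin-induced repressor, was at 7.43, 7.38 and 6.98 in CA and at 6.52, 6.22 and 5.45 at 12 h. These groups did not overlap, but the log2 change of -1.20 had a standard error of 0.64 and an adjusted p of 0.176. At 6 h IAA29 had been at 9.27, 11.27 and 11.39. GH3.17, of auxin conjugation, passed the p threshold alone with -0.99 (adjusted p = 0.000918).

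Of 7 gibberellin genes named from the authors' list, 4 rose and 0 fell. That list was selected for change, with 159 of its 682 probe sets higher at 12 h and 180 lower. GASA6, a gibberellin-regulated peptide, rose by 2.88, from 8.69, 8.93 and 8.75 to 11.69, 11.81 and 11.52, with the groups far apart. GA2OX2, which inactivates gibberellins, rose by 1.75, GA3OX2, which makes the active forms, by 1.33, and RGL1, a repressor of gibberellin responses, by 1.39. The 3 that were not called were GA3OX1 (-0.52, adjusted p = 0.41), of the same enzyme class as GA3OX2, ATGA2OX1 (0.67) and the repressor GAI (0.73). ILL6, also from the authors' list and an amidohydrolase of hormone conjugates, rose by 1.66 and KCS12, of fatty acid elongation and from the same list, by 1.63.

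In carbohydrate metabolism, 1 of 7 measured genes of the sucrose and raffinose list rose and 1 fell, of 31 listed (median -0.10). AT1G62660, a vacuolar invertase that splits sucrose, was at 6.51, 7.09 and 6.60 in CA and at 9.31, 9.05 and 9.10 at 12 h, a rise of 2.42 (SE 0.17, adjusted p = 4.82e-08). SAG29, a sugar transporter, was at 6.05, 6.68 and 6.34 in CA and at 5.03, 5.02 and 4.80 at 12 h, a fall of 1.41, while it stood at 8.24, 9.20 and 8.98 at 24 h. For both genes the CA and 12 h arrays did not overlap. Of 6 measured starch genes, of 38 listed, 0 were called (median -0.12), a count near the background share for so few genes. From the authors' list, GBSS1, the starch synthase of amylose, fell by 3.78, from 12.11, 12.25 and 12.26 to 8.20, 8.61 and 8.46, and stood at 12.85, 12.83 and 12.86 at 24 h. In the same list GPT2, a glucose 6-phosphate carrier of the plastid envelope, fell by 2.37. These were the 2 called of 7 starch genes named from it. SEX1 (-0.14), DPE2 (-0.19), AMY3 (0.63), APL2 (-0.84) and SBE2.1 (-0.46) were not called. GolS2 rose by 1.28, whereas GolS3 fell and the sugar list's ERDL6 (0.61) was not called. Of 4 trehalose genes, the trehalose phosphate phosphatase TPPB rose by 1.45 and TPS10 fell by 1.10, while TPS8 (0.22) and TPS11 (-0.54) were not called. TPS10 lost its call in several fits with 1 array left out.

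Among light-harvesting proteins, 1 of 4 measured rose and 0 fell, of 20 listed. LHCB4.3, an antenna protein of photosystem II, was at 6.79, 6.42 and 7.01 in CA and at 9.17, 8.28 and 8.93 at 12 h, a rise of 2.05 (SE 0.25, adjusted p = 9.36e-06). Its relatives LHCB4.1 and LHCB4.2 changed by 0.28 and -0.08. CAB2, an antenna protein from the authors' list, fell by 4.05, from 11.07, 11.13 and 11.11 to 6.89, 7.36 and 6.91, and was at 9.39, 9.69 and 9.79 at 24 h. CAB2 belongs to a family of near-identical copies, between which probes may not distinguish. LHCB2.1 fell by 1.17 and Lhca6 rose by 1.33, both also from that list.

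Genes of jasmonate and defence were mostly not in the platform table (2 of 30 and 2 of 21 measured). JMT, which methylates jasmonate, fell by 1.01, at the fold threshold, from 8.96, 9.32 and 9.04 to 8.50, 7.61 and 8.19. It was no longer called without replicate 2 or 3 of 12 h (-0.77 and -1.06) or of CA (-0.90 and -1.04). PDF1.2, a defensin induced by jasmonate and ethylene, was at 7.69, 9.41 and 9.49 in CA and at 4.59, 4.81 and 6.35 at 12 h, a fall of 3.61 (SE 0.85, adjusted p = 0.0033). Its groups did not overlap, although CA replicate 1 lay below the other CA arrays, and it shares much of its sequence with PDF1.2b and PDF1.2c.

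Of 8 jasmonate genes named from the authors' list, 3 rose and 0 fell, where 159 of all its 682 probe sets rose and 180 fell. The jasmonate synthesis enzymes OPR3 and LOX3 rose by 1.73 and 1.02 and the transcription factor MYC2 by 1.52. Not called were LOX1 (0.88), LOX4 (0.59), JAZ5 (0.98), JAZ6 (0.11) and JAZ8 (0.74). LOX3 lost its call without replicate 3 of 12 h (0.86), without CA replicate 1 (0.99) and with arrays centred on their medians (0.98). NIMIN1, also from that list and an interactor of the salicylate receptor, rose by 2.08 and PR5 fell by 1.22, while PR1 (both from that list) changed by 0.20 (adjusted p = 0.758). Of 4 measured glucosinolate genes 0 were called, a count near the background share for so few genes. FMO GS-OX2, from the authors' list, which modifies aliphatic glucosinolates, rose by 2.65 and ESP, which acts in their breakdown, by 1.64, whereas CYP79F1 and CYP79F2, 2 similar enzymes of chain-elongated glucosinolate synthesis, fell by 1.76 and 1.42. In the low energy and hypoxia list, HRA1 (AT3G10040), a repressor of hypoxia responses, rose by 1.79, from 6.51, 5.67 and 6.14 to 8.22, 7.58 and 7.91. PDC2 changed by 0.18. Named from the authors' list, DYL1, of the dormancy and auxin-repressed family, rose by 3.20 and alcohol dehydrogenase ADH1 fell by 1.71.

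The trehalose, heat shock factor, brassinosteroid, abscisic acid, fatty acid elongation, desaturase and nitrate lists had 0 members in the platform table. Chlorophyll synthesis (3 measured, median 0.21), beta-oxidation (2, median 0.29) and proline (1, 0.90) had 0 calls at 12 h.

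The largest changes were listed among the called probe sets whose CA and 12 h arrays did not overlap. The largest fall was that of AT3G55580, at 11.53, 11.55 and 11.53 in CA and at 4.46, 4.65 and 4.32 at 12 h. It fell by 7.06 (SE 0.21, adjusted p = 2.31e-12), with almost no spread in either group. Its 12 h values lay below the lower quartile of all values (4.93), and as no detection calls were used here, a signal above background at 12 h was not shown. It had been at 6.42, 5.74 and 5.95 at 6 h and was at 8.35, 7.96 and 8.01 at 24 h, so that 12 h was the lowest of the 7 groups. AT3G09450 fell by 5.83, from 10.75, 10.87 and 10.93 to 4.82, 4.99 and 5.26. AT1G26790, a Dof-type zinc finger gene, fell by 5.46, from 10.82, 10.70 and 10.83 to 5.44, 5.42 and 5.10. Both were back at 9.35 to 9.83 and 10.46 to 10.53 at 24 h.

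The other genes among the 15 largest falls, beside LTI30, XTH33, XTH20, PDF1.2 and DFR, were AT4G30830 (-3.90), AT1G04570 (-3.88), AT4G15430 (-3.79), AT4G25433 (-3.78), AT4G27360 (-3.72), AT3G14395 (-3.33) and AT5G15853 (-3.32). For 12 of the 15, all 24 h arrays were below all CA arrays, the exceptions being AT4G27360, AT3G14395 and PDF1.2. In NA plants this also held for 12, the exceptions being XTH33, AT4G27360 and PDF1.2. Of the 15, 8 were called lower at 12 h than at 24 h, so these had risen again by 24 h. The share of all probe sets with such positions was not counted. AT4G27360 was at 7.99, 7.49 and 7.77 in CA, at 3.73, 4.55 and 3.81 at 12 h and at 7.64, 8.46 and 8.15 at 24 h. As these genes were chosen for their fall at 12 h, these positions are a description.

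The largest rise was that of CSLA01, a cellulose synthase-like protein of mannan synthesis, at 5.05, 4.84 and 6.39 in CA and at 10.09, 9.02 and 10.43 at 12 h. It rose by 4.42 (SE 0.76, adjusted p = 0.000254), from CA values of which 1 lay below that quartile, and in both groups 1 array stood apart from the other two. AT1G07050, a CONSTANS-like gene, rose by 4.19 with little spread, from 5.24, 5.14 and 5.20 to 9.48, 9.25 and 9.43. AT2G05160, a gene for a CCCH zinc finger protein with an RNA recognition motif, rose by 3.81, from 5.85, 4.79 and 5.19 to 8.93, 9.11 and 9.20.

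The other 12 of the 15 largest rises were AT2G14247 (4.39), AT4G23680 (4.24), AT5G05250 (4.18), AT3G22235 (4.11), AT3G59250 (4.05), AT3G10185 (4.01), AT1G73325 (3.98), AT5G52770 (3.91), AT4G29710 (3.68), AT4G29700 (3.67), AT3G30730 (3.64) and AT5G24155 (3.60). At 24 h, 14 of the 15 had all arrays above all CA arrays, and in NA plants also 14, the exception being AT1G07050 in each case. Of the 15, 2 were called higher at 12 h than at 24 h. These genes were chosen for their rise over the same CA arrays, so their positions too are a description. The share of all probe sets with such positions was not counted. AT1G07050 was at 4.40, 4.00 and 4.80 at 24 h and at 4.91, 4.26 and 4.52 in NA plants. AT3G22235 was at 11.47, 11.14 and 11.48 at 12 h and at 9.00, 9.61 and 9.17 at 24 h, so that it was above both CA (7.24, 7.01 and 7.51) and 24 h.

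**Figure D5:**
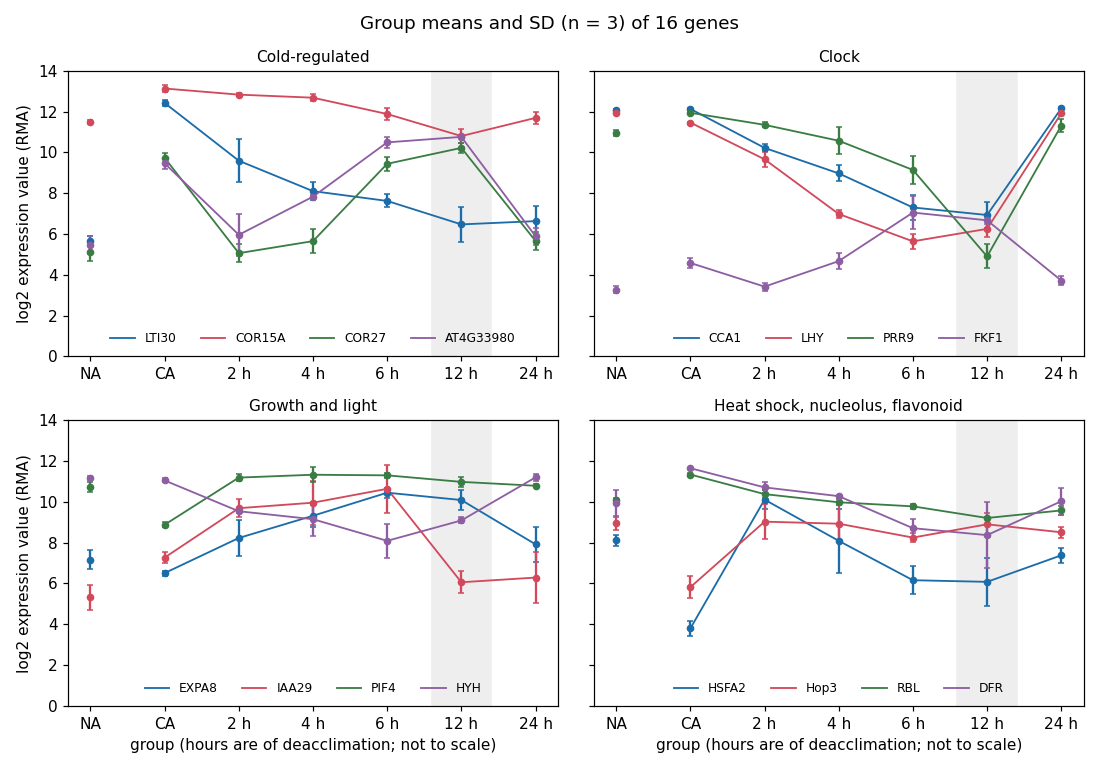
Mean log2 expression value with SD (vertical axis, n = 3 arrays) of 16 genes in NA plants, CA plants and after 2 to 24 h of deacclimation (horizontal axis, not to scale), with 12 h shaded. COR27 and AT4G33980 are high at 12 h and low at 24 h, CCA1, LHY and PRR9 are low at 12 h and high at 24 h, and IAA29 drops between 6 h and 12 h.

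Against the preceding time, 29 probe sets of the platform table were higher at 12 h than at 6 h (0.173%) and 32 were lower (0.191%). The largest difference was that of IAA29, lower at 12 h by a log2 difference of -4.58 (SE 0.64, adjusted p = 0.00212). AT3G21330, a bHLH gene, was at 4.34, 4.60 and 4.60 at 12 h and at 5.64, 8.26 and 8.26 at 6 h, a difference of -2.87. For both genes replicate 1 of 6 h lay below the other two, and the groups did not overlap. AT5G62280, AT5G12050 and AT5G23350 were lower by -2.65, -2.33 and -2.28. The 5 largest differences in the other direction were those of AT1G47400 (2.35), AT1G13609 (2.33), AT2G27420 (2.24), AT1G47395 (2.23) and AT4G29710 (2.06). AT2G27420 was at 10.42, 10.65 and 10.74 at 12 h, at 9.51, 7.51 and 8.05 at 6 h and at 12.04, 12.38 and 12.19 at 24 h. PRR9, from the authors' list, was lower at 12 h than at 6 h by -4.24 (adjusted p = 2.44e-05).

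These counts depended on the arrays used. Fitted on the 6 arrays of 6 h and 12 h alone they were 0 and 0. Without 1 array at a time, 5 to 84 probe sets were higher and 9 to 65 lower, the highest numbers being those without replicate 1 of 6 h. With the replicate number as a block, 39 were higher and 47 lower.

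Against 24 h, 165 probe sets were higher at 12 h (0.987%) and 231 lower (1.38%). AT1G56300, a gene for a protein with a DnaJ domain, had the largest difference, 6.13 (SE 0.31, adjusted p = 3.31e-09). It was at 10.00, 9.77 and 10.03 in CA, at 12.04, 12.14 and 12.11 at 12 h and at 7.01, 5.24 and 5.65 at 24 h, so it was above CA at 12 h and below CA at 24 h. AT1G07050, AT4G33980, COR27 and AT1G17665 were higher at 12 h by 4.99, 4.86, 4.56 and 4.53. AT1G26790, AT3G09450, AT4G34550, AT4G31875 and AT4G27360 were lower at 12 h than at 24 h, with log2 differences of -5.19, -4.63, -4.45, -4.25 and -4.05. SAG29 and JMT were lower at 12 h and higher at 24 h than in CA plants, and their 12 h values were below those of 24 h by -3.86 and -2.01.

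Against plants that had not been cold acclimated, 316 probe sets were higher at 12 h (1.89%) and 423 lower (2.53%). The largest difference was that of AT1G33760, at 3.35, 3.71 and 3.98 at 12 h and at 8.84, 9.90 and 10.91 in NA plants, -6.20 on the log2 scale (SE 1.04, adjusted p = 0.000581). Its 3 arrays at 24 h were at 4.49, 10.86 and 5.62, a spread larger than that of either group. AT1G26790, SAG29, AT3G09450 and AT4G34550 were lower than in NA plants by -5.30, -5.24, -4.82 and -4.47. AT1G56300, AT4G33980, COR27, AT1G07050 and AT1G17665 were higher than in NA plants by 5.90, 5.30, 5.10, 4.82 and 4.61. The comparisons with 24 h and with NA plants use the same 12 h arrays.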

How the data were processed

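The deposited table holds log2 expression values per probe set of the Affymetrix Arabidopsis Gene 1.0 ST array, which the authors normalized with RMA in RobiNA (version not given in the sources used here). RMA makes the value distributions of all arrays alike, so changes are relative to the other probe sets. Of 38408 probe sets, 7079 at the head of the table, numbered in steps of 2 and without a gene, were left out, and 31329 were analysed. Names came from the platform table (16722 probe sets with 1 gene, 759 with several), with current symbols from RefSeq, and for 682 more from the authors' list of called transcripts (1997 entries in hand, not the whole list).

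Differences were tested with limma 3.58.1 in R 4.3.3, in 1 fit of all 21 arrays (14 residual and 2.69 prior degrees of freedom), with p-values adjusted by Benjamini-Hochberg over the 31329. The fit was tested on simulated data. A list gene with several probe sets was represented by the one with the highest mean, and medians of lists are over those. Gene lists were compiled by hand, and the members, lists and comparisons were chosen with earlier results of these data known. Named genes were the 15 largest rises and falls free of overlap between groups, up to 4 members of each list in each direction with the best known others, genes the study names, and the 5 largest differences each way in the other comparisons. The other members named stand beside them from the same lists, and the families of the closing section were chosen after their values were seen. With 3 arrays per group, the number of arrays limits the precision.

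Whether equal replicate numbers pair the arrays was checked from the correlation of deviations from the group means. It was 0.215, 0.181 and 0.236 between 12 h and 6 h, and 0.118, 0.0512 and 0.138 between 12 h and CA. In both cases each 12 h array correlated best with the array of its own number. The main fit did not pair the arrays. The study's text speaks of independent experiments. The sources do not say whether arrays of equal replicate number came from the same one. Alternatives covered the probe sets, arrays, scaling, replicate block, dim probe sets, fold threshold, variance prior and single replicates left out.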

Additional observations from a re-analysis of the deposited data

Results flagged for a closer look

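In the block of 7079 probe sets at the head of the table, which carries no gene and was left out, 101 were higher and 1354 lower at 12 h than in CA plants when the whole table was fitted. The sources used here do not say what they measure.

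For 4 named genes the change against CA plants was called in opposite directions at 12 h and at 24 h. A large difference between these times follows from such calls, and it was called too. Only named genes were searched, and AT1G56300 and AT4G33980 were also among the genes named for this difference. The log2 difference of 12 h from 24 h was 6.13 for AT1G56300 and 4.86 for AT4G33980, which were above CA at 12 h and below it at 24 h. It was -3.86 for SAG29 and -2.01 for JMT, which were below CA at 12 h and above it at 24 h. These groups were also taken at different times of day, and the part of this in the differences cannot be told apart.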

How the results depend on the processing

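Of 162 named genes called at 12 h against CA plants, 144 kept their call in all 13 alternative fits and 0 reversed. All 10 named against 24 h and all 10 against NA plants kept theirs, and 0 of the 10 against 6 h did. Without the fold threshold the counts were 2542 higher and 2253 lower against CA, 71 and 93 against 6 h, 642 and 574 against 24 h, and 1349 and 1174 against NA plants. Leaving out 1 array, they were 696 to 774 and 646 to 711 against CA, and 5 to 84 and 9 to 65 against 6 h: 10 and 18, 17 and 13 or 7 and 17 without replicate 1, 2 or 3 of 12 h, and 84 and 65, 5 and 14 or 8 and 9 without replicate 1, 2 or 3 of 6 h. On the arrays of 6 h and 12 h alone they were 0 and 0, where 2104 passed an unadjusted p under 0.05 in the fit of all arrays. With the replicate block they were 760 and 694 against CA, 39 and 47 against 6 h, and 172 and 240 against 24 h. Against NA plants this block gave 322 and 436. Each 12 h array correlated best with the CA array of its number, but the sources do not say what equal numbers share. With arrays centred on their medians the counts were 693 and 751 against CA, 48.0% of the calls being higher, against 52.7% as deposited. Genes of ribosome biogenesis that fell numbered 17 in place of 8 with names from the authors' list added, as more genes were counted, and 7 with cyclic loess or without replicate 1 of 12 h. With 3 arrays per group, changes near 2-fold were called or not depending on single arrays.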

Other observations

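Several gene families outside the lists were looked at after their values had been seen, and their counts are descriptions. Over the whole platform table, 4.53% of probe sets rose and 4.07% fell at 12 h. Families picked in this way cannot be tested against these shares. Of 8 genes of the ER body, a compartment that stores a defence glucosidase in Brassicaceae, 6 rose at 12 h and 0 fell, with a median log2 change of 1.39 (0.61 to 1.78). PYK10, the main glucosidase of ER bodies, was at 8.93, 8.92 and 8.20 in CA and at 10.19, 10.20 and 10.20 at 12 h, a rise of 1.51. NAI2, a protein of ER body formation, rose by 1.76 and the lectin JAL34 by 1.78. The regulator NAI1 rose by 1.10, but this was 0.72 without CA replicate 3, and it was also not called on the 6 arrays alone or without replicate 1 or 3 of 12 h or CA replicate 2.

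Of 17 RNA polymerase subunits, 6 fell and 1 rose, with a median of -0.71. NRPA1, the largest subunit of RNA polymerase I, was at 9.34, 9.76 and 9.61 in CA and at 8.28, 8.63 and 8.50 at 12 h, a fall of 1.10. NRPC1 and NRPC2 of RNA polymerase III fell by 1.05 and 1.06, with -0.97 and no call for NRPC1 without CA replicate 2. NRPD2B rose by 1.34.

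Of 6 methionine sulfoxide reductases of type B, which repair oxidized methionine, 3 rose and 0 fell, led by MSRB8 with 1.99 and MSRB9 with 1.77. Of 8 plant defensins 3 fell and 1 rose. PDF2.1 was at 9.43, 8.58 and 9.13 in CA and at 6.08, 5.54 and 5.80 at 12 h, a fall of 3.24.

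Of 14 SWEET sugar transporters 2 fell and 0 rose. SWEET13 was at 10.92, 10.62 and 10.24 in CA and at 7.60, 7.62 and 6.86 at 12 h, a fall of 3.23, and SWEET4 fell by 1.44. SAG29, a member of the same family under another name, is not among the 14. Of 21 cytochromes P450 of the CYP71B group 5 rose and 0 fell, led by CYP71B28 with 1.94. Of 7 ATG8 genes of autophagy 2 rose and 0 fell, ATG8H by 1.50 and ATG8E by 1.06, the latter not called without 5 of the 6 arrays in turn.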
